A study of Drosophila melanogaster with 73 samples.

Results

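The genes described here are the UDP-glycosyltransferase (Ugt) genes of Drosophila melanogaster, taken as every row of the deposited expression table whose symbol begins with Ugt and a digit. The rule found 35 of 23932 genes and used no measured value. Of the 35 genes, 18 had a median above 1 TPM (transcript abundance relative to a fixed library total) over all libraries, against 8973 genes of the whole table, and 14 reached a median above 5 TPM at either temperature on days 4-5 and were tested together with the other genes that did, 7358 in all.

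UDP-glycosyltransferases join a sugar from a UDP-sugar donor to small lipophilic molecules, which makes them soluble and ready for export. Insects mostly use UDP-glucose where vertebrates mostly use UDP-glucuronic acid, and the enzymes sit in the membrane of the endoplasmic reticulum, facing its lumen. In flies they act beside cytochrome P450 enzymes and glutathione S-transferases on plant toxins, insecticides, odorants and pigments, and the fat body, gut and Malpighian tubules are the main tissues of this chemistry.

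The libraries came from the abdominal fat body, the fly's tissue of energy storage and detoxification, in a study of how the circadian transcriptome responds to cold. All groups were females of the isogenic Iso31 strain, aged with males and entrained for 3 days to 12 h light and 12 h dark at 25°C on a sucrose and yeast diet. At about 7 days old they were kept at 25°C or moved to 18°C, with ZT00 (zeitgeber time, hours after lights on) of day 1 as the time of the shift. Days 4-5, the settled state, held 26 libraries at 25°C and 24 libraries at 18°C, while days 1-2, the first hours, held 18 libraries at 18°C and 5 libraries at 25°C, so flies of days 4-5 were also older. Replicate 1 was taken mostly every 2 h, replicate 2 and the 25°C libraries of days 1-2 about every 6 h, and only days 4-5 held a replicate 2. Each library pooled the fat tissue of about 10 flies attached to the epidermis after other abdominal organs had been cut away.

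The tissue label was checked against fixed marker lists. Of 8 fat body markers, 7 had a median above 1 TPM in every group, led by the yolk proteins Yp1, Yp2 and Yp3, and their summed level lay between 20636 and 54784 TPM over the 73 libraries. The exception was Fbp1, a larval fat body gene, with group medians of 0.05 to 0.14 TPM. Markers of oenocytes, another cell type, were also high. The 4 in the list summed to between 16927 and 27590 TPM per library, with group medians of 20984 to 23178 TPM, led by Cyp4g1. Markers of organs that the dissection removed were present in uneven amounts, with summed levels per library of 13.2 to 734 TPM for 8 Malpighian tubule markers, 9.76 to 11499 TPM for 10 gut markers and 0.00 to 9246 TPM for 6 eggshell markers. The library of 18°C day 2 at ZT00 stood apart, with the lowest fat body sum (20636 TPM, the next lowest being 27126), 382 TPM of tubule markers and 520 TPM of gut markers. In such bulk samples, fewer cells of a type and less RNA per cell cannot be told apart.

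A few genes carried most of the family's transcripts. Summed over the family, a library held between 305 and 646 TPM, with group medians of 440 TPM at 25°C and 458 TPM at 18°C on days 4-5, and of 547 TPM at 25°C and 404 TPM at 18°C on days 1-2. The 3 most abundant genes made up 45.1% of that sum and the 7 most abundant 76.5%. Ugt49B1 had the highest median over all libraries at 78.6 TPM, followed by Ugt36D1 at 70.05 TPM, Ugt302C1 at 46.0 TPM and Ugt301D1 at 37.5 TPM. Ugt36E1 (35.6 TPM), Ugt49C1 (34.6 TPM), Ugt37D1 (28.8 TPM) and Ugt35C1 (22.8 TPM) came next. TPM is corrected for transcript length, so these levels can be set beside each other, but neighbours in this order overlapped in their range over libraries.

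At the lower end, Ugt302E1 (median 1.19 TPM) and Ugt303B3 (1.17 TPM) lay just above 1 TPM, and Ugt37C1 (0.63 TPM) and Ugt305A1 (0.24 TPM) just below it. No value of the 17 genes at or below 1 TPM exceeded 4.93 TPM in any library, and 7 of them had a median of 0. By contrast, 16 of the 35 genes were above 0 in all 73 libraries.

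**Figure D1:**
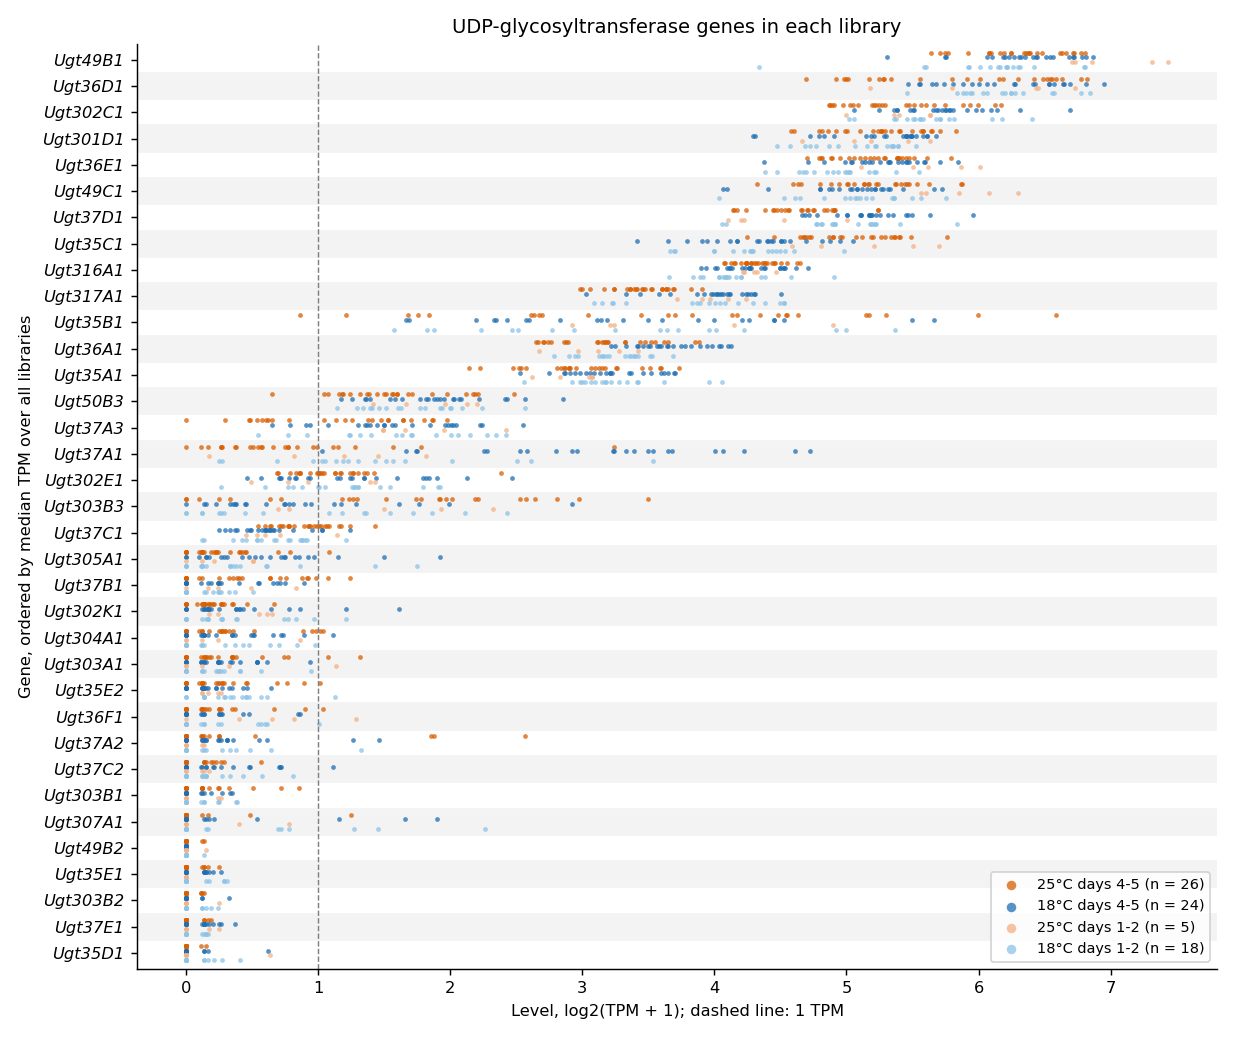
Level of each of the 35 Ugt genes as log2(TPM + 1) on the horizontal axis, with 1 point per library and 1 row per gene, ordered by the median over all libraries and coloured by group. The 18 upper genes have a median above 1 TPM (dashed line), and Ugt37A1 and Ugt35B1 spread over the widest range among them.

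Most family members are neighbours in the genome. In the Ensembl BDGP6 annotation, 17 of the 35 genes lie on chromosome arm 3R, 11 on 2L, 5 on 2R and 2 on 3L, and 23 of them sit in 6 clusters with gaps under 50000 bases. The largest, chr3R:11126597-11177910, holds 10 genes, of which Ugt35C1, Ugt302C1, Ugt35B1 and Ugt35A1 were tested and the other 6 were too low. A second cluster, chr2L:18819344-18829059, holds Ugt36F1, Ugt36D1 and Ugt36E1, and a pair, Ugt49B1 and Ugt49C1, lies at chr2R:21212880-21217779. Neighbours could lie far apart in level, since Ugt36D1 (70.05 TPM) lies beside Ugt36F1 (0.09 TPM) and Ugt37D1 (28.8 TPM) shares its cluster with Ugt37E1 (0.00 TPM).

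Co-variation over the 50 libraries of days 4-5 differed between neighbouring pairs. Ugt36D1 and Ugt36E1 are 54 bases apart and had a Pearson correlation of 0.17 on the log2(TPM + 1) scale, whereas Ugt49B1 and Ugt49C1, 463 bases apart, had 0.45, and Ugt35A1 and Ugt35B1, 571 bases apart, had 0.65. The closest pairs were Ugt35A1 with Ugt302C1 at 0.78, Ugt36D1 with Ugt302C1 at 0.71 and Ugt36E1 with Ugt49B1 at 0.70, and only the first of these lies within 1 cluster. These libraries share tissue composition, temperature and time of day, and the correlations are descriptions.

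A temperature difference on days 4-5 was called for 8 of the 14 tested genes, 7 higher and 1 lower at 18°C (limma moderated test with shared 24 h terms, Benjamini-Hochberg adjusted p under 0.05). Of all 7358 genes, 50.7% were called, 35.3% higher and 15.4% lower, so the share of the family was near the background. The median difference was 0.15 log2 units for the 14 genes and 0.09 for all tested genes. After the TPM were rescaled by median-of-ratios size factors, the medians were 0.09 and 0.02, and 6 Ugt genes were higher and 2 lower, while the split over all genes moved from 2600 higher and 1132 lower to 2030 and 1735. Markers of the fat body and of other cell types also moved with temperature. Of 7 tested fat body markers, 2 were higher and 1 was lower at 18°C. The summed level of all 8 in that list had a median of 39082 TPM at 18°C, against 38263 TPM at 25°C. Of 4 oenocyte markers, 1 was higher and 2 were lower at 18°C (median summed level 21211 TPM, against 23178 TPM at 25°C). All 3 tested hemocyte markers were lower at 18°C (summed level of all 4 in the list 49.1 to 199 TPM, median 99.8, against 68.1 to 312 TPM, median 143, at 25°C), and 3 of 5 muscle markers were (1616 to 5592 TPM, median 2844, against 2044 to 5076 TPM, median 3649). Their part in the Ugt differences was not tested.

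Ugt37A1 (FBgn0026756, chr2L:20372409-20374104) had the widest difference. At 25°C it ranged from 0.00 to 8.43 TPM with a median of 0.54, and at 18°C from 1.04 to 25.5 TPM with a median of 8.41. The groups overlapped, with 6 libraries at 25°C at or above the lowest value at 18°C, but no library at 18°C was below the median at 25°C, and the 18°C library was higher in 22 of 24 pairs matched for replicate, day and time. The difference was 2.28 log2 units (SE 0.23, limma adjusted p = 1.94e-11), which understates the change of so low a gene, and the ratio of the means was 9.34. Ugt37A1 passed the filter only through its level at 18°C, so it could enter the test in that direction alone. With replicate 2 alone, 12 libraries, only 2 of the 8 calls remained, Ugt37A1 (1.93, limma adjusted p = 0.0474) and Ugt37D1 (0.85, adjusted p = 0.0344).

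Ugt36A1 (FBgn0015663, chr2L:3619097-3621573), also known as Dorothy and a source of drivers for pericardial nephrocytes in flies, rose from a median of 7.98 TPM (5.29 to 13.8) to 11.5 TPM (8.31 to 16.5). It was higher at 18°C in 22 of 24 pairs, by 0.52 log2 units (SE 0.064, limma adjusted p = 2.49e-09). A shared stretch of 400 exon bases, 17.4% of its exons, overlaps CG15418 on the other strand, whose reads cannot be told apart from it in these non-stranded libraries. CG15418 had a median of 0.60 TPM and never exceeded 6.04 TPM. The exons of Ugt49B1, Ugt37A1 and Ugt36E1 share 90, 59 and 48 bases with genes on the other strand.

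Ugt317A1 was higher at 18°C, with a median of 15.5 TPM (7.17 to 21.7) against 9.99 TPM (6.92 to 14). The difference was 0.53 log2 units (SE 0.083, limma adjusted p = 5.79e-07). The groups overlapped, although 18 of the 24 libraries at 18°C were above every library at 25°C. Between the first days and the settled state, Ugt317A1 differed little at 18°C (−0.01, SE 0.13, not called). At 25°C the first days were higher by 0.53 (SE 0.116, limma adjusted p = 0.00268), a call lost with marker scores as covariates. The estimate at 18°C averages over a rise within the first days. Ugt317A1 at 18°C was at 8.37 TPM at the time of the shift and at 7.89 TPM 6 h later. On day 2 it was at 14.54 to 22.04 TPM, with a median of 17.09. At the time of the shift the 25°C library was already higher, at 17.87 TPM. The period differences thus do not show at which temperature the level changed after the shift. Ugt37D1 was higher at 18°C by as much, with a median of 35.1 TPM (24.3 to 61.2) against 24.3 TPM (16.7 to 36.8) at 25°C. The difference was 0.53 (SE 0.083, limma adjusted p = 8.01e-07). No 18°C library of Ugt37D1 was below the median at 25°C.

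Smaller rises were found for 3 further genes. Ugt302C1 went from a median of 37.8 TPM (28.2 to 70.8) to 52.2 TPM (32.3 to 102.5), or 0.35 log2 units (SE 0.094, limma adjusted p = 0.00174). Ugt36D1 went from 61.4 TPM (24.9 to 112) to 72.3 TPM (43.2 to 122), or 0.32 (SE 0.089, adjusted p = 0.00251). They were higher in 17 and 16 of 24 pairs. Ugt35A1, at 6.62 TPM (3.41 to 12.3) and 8.15 TPM (4.76 to 12), differed by 0.23 (SE 0.096, adjusted p = 0.0421). Its call held in 30 of 50 fits that each left out 1 library and was lost in 6 other alternatives. Without replicate 2, the calls of Ugt302C1 (0.19, adjusted p = 0.0805) and Ugt35A1 (0.05, adjusted p = 0.656) were both lost.

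Ugt35C1 (FBgn0040256), formerly Ugt86Dd and known in flies for its part in nicotine resistance, was the only tested member called lower at 18°C. Its median was 31.4 TPM (17.9 to 53.4) at 25°C and 20.2 TPM (9.67 to 32.0) at 18°C. It was lower in 21 of 24 pairs, by 0.70 log2 units (SE 0.105, limma adjusted p = 3.02e-07), and its cluster neighbours Ugt302C1 and Ugt35A1 moved the other way.

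The remaining 6 genes did not pass the threshold. Their estimates were −0.14 (SE 0.094) for Ugt49C1, 0.07 (SE 0.083) for Ugt36E1, 0.06 (SE 0.099) for Ugt49B1, −0.02 (SE 0.096) for Ugt301D1 and −0.04 (SE 0.055) for Ugt316A1. Ugt316A1 was called lower in the rescaled TPM (−0.10, adjusted p = 0.0154). Ugt35B1 was the least certain at −0.21 (SE 0.32). Of the 4 genes with a median between 1 TPM and the filter, fitted with all 8973 genes above 1 TPM, Ugt37A3 (0.43, adjusted p = 0.0130) and Ugt50B3 (0.30, adjusted p = 0.0286) were called higher at 18°C and Ugt303B3 lower (−0.73, adjusted p = 0.00717). Ugt302E1 was at 0.13 (adjusted p = 0.400).

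**Figure D2:**
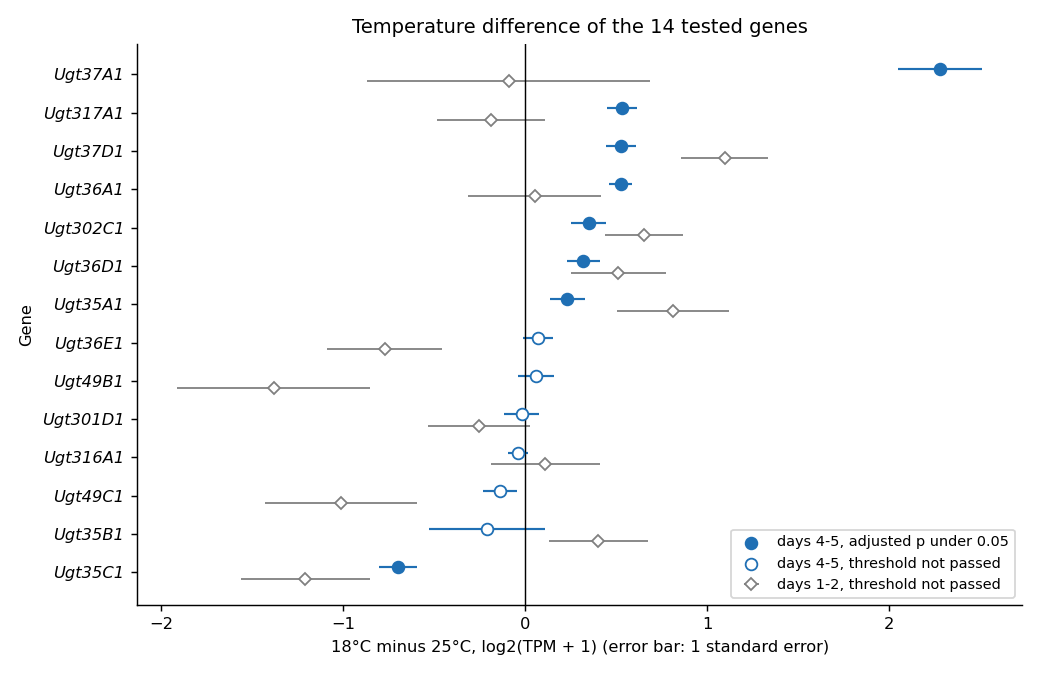
Difference between 18°C and 25°C in log2(TPM + 1) for the 14 tested genes, with 1 standard error, on days 4-5 (blue circles, filled where called) and at 3 matched time points of days 1-2 (grey diamonds, none called). On days 4-5 Ugt37A1 lies far to the right at 2.28 and Ugt35C1 alone is called to the left at −0.70.

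Ugt35B1 and Ugt303B3 varied with the Malpighian tubule markers. Ugt35B1 ranged from 0.82 to 95.2 TPM at 25°C and from 2.18 to 49.7 TPM at 18°C on days 4-5. Over the 50 libraries its Pearson correlation with the mean tubule marker score was 0.91, with 0.91 within 25°C and 0.90 within 18°C, and that of Ugt303B3 was 0.81. Ugt35A1 stood at 0.65, and Ugt35C1 and Ugt302C1 at 0.56 within 25°C only, against 0.22 and 0.11 within 18°C. Ugt36A1 (−0.02), Ugt317A1 (−0.01), Ugt37D1 (0.03) and Ugt37A1 (−0.15) had values near 0 or slightly negative over both temperatures, although Ugt37D1 was at 0.31 within 25°C and −0.18 within 18°C and Ugt37A1 at −0.02 and −0.35. The tubule sum itself had medians of 150 TPM at 25°C and 136 TPM at 18°C, and its part in these results was not tested. When the 11 libraries above 300 TPM of tubule markers were left out, the same 8 genes were called on days 4-5.

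**Figure D3:**
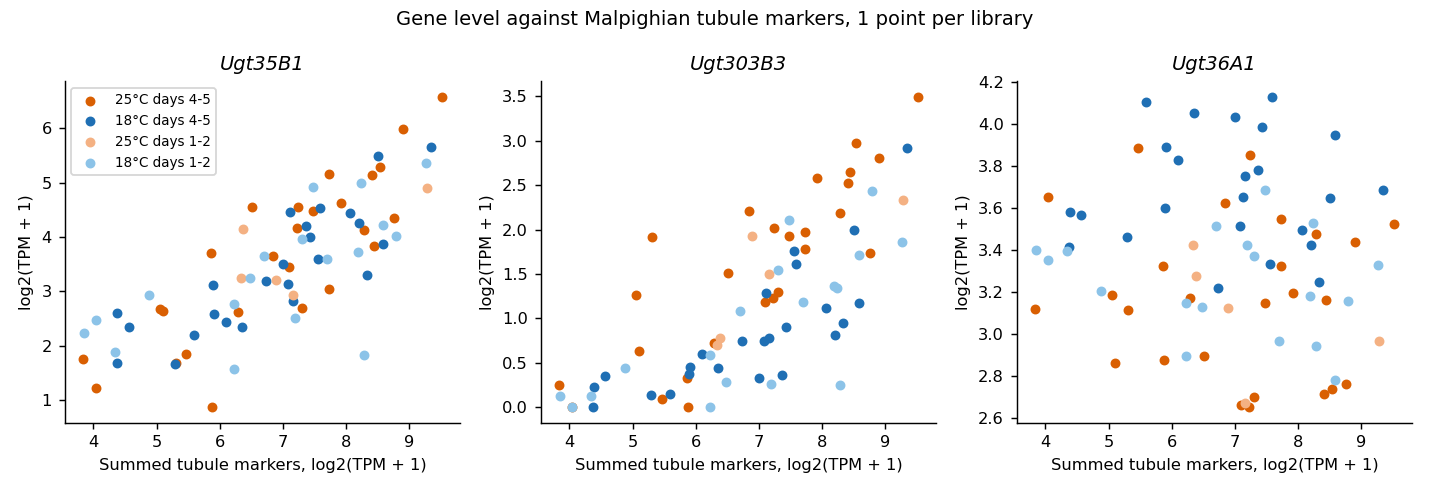
Level of Ugt35B1, Ugt303B3 and Ugt36A1 (vertical axes, log2(TPM + 1)) against the summed level of 8 Malpighian tubule markers (horizontal axis, log2(TPM + 1)), with 1 point per library coloured by group. Ugt35B1 and Ugt303B3 climb with the markers, whereas Ugt36A1 does not.

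Harmonic regression with a period of 24 h was used to call cycling genes (F-test, Benjamini-Hochberg adjusted p under 0.05). At 25°C on days 4-5, 3 of the 14 genes cycled, Ugt36D1, Ugt36A1 and Ugt49C1, against 5.04% of all tested genes. At 18°C, 2 of the 14 cycled, Ugt36D1 and Ugt36A1, against 1.78%. An unadjusted F-test p under 0.05 was found for 6 of the 14 at 25°C, against 22% of all tested genes. At 18°C it was found for 3 of the 14, against 27.4%. The median amplitude, the distance from the fitted mean to the peak, was 0.24 log2 units at 25°C for the family and 0.10 for all genes, and 0.23 and 0.17 at 18°C.

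Ugt36D1 had the largest amplitude among the genes called at either temperature. At 25°C its median was 83.2 TPM at ZT00-04, 92.5 at ZT06-10, 35.9 at ZT12-16 and 46.3 at ZT18-22. The values at ZT12-16 (29.2 to 46.1 TPM) did not overlap those at ZT06-10 (59.2 to 112 TPM). Its fitted peak was at ZT3.81 (SE 0.455 h) with an amplitude of 0.83 and a peak-to-trough fold of 3.17 (F-test adjusted p = 2.66e-05). At 18°C the medians of the same 4 windows were 98.7, 88.4, 59.4 and 50.1 TPM, with the peak at ZT4.00 (SE 0.607 h), an amplitude of 0.51 and a fold of 2.02 (adjusted p = 0.00295). The phase at 25°C minus that at 18°C was −0.19 h (SE 0.759 h), so no phase advance was detectable for this gene. The median at 18°C was higher than at 25°C at ZT12-16 and slightly lower at ZT06-10, but the temperature by harmonic interaction did not pass (unadjusted p = 0.0327, adjusted p = 0.326).

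Ugt36A1 cycled in the opposite part of the day. At 25°C its values at ZT18-22 (10.1 to 13.8 TPM) lay above all those at ZT06-10 (5.33 to 8.17 TPM), with a peak at ZT20.7 (SE 0.597 h) and an amplitude of 0.42 (F-test adjusted p = 0.00108). At 18°C the peak was at ZT18.9 (SE 0.921 h) with an amplitude of 0.26 (adjusted p = 0.0407). The call at 18°C held in 11 of 24 fits that each left out 1 library and was lost in the rescaled TPM (adjusted p = 0.186). The peak was earlier at 18°C by 1.84 h with an SE of 1.1 h, and the temperature by harmonic interaction did not pass.

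Ugt49C1 peaked near Ugt36D1 at 25°C, at ZT4.05 (SE 0.759 h) with an amplitude of 0.39 (F-test adjusted p = 0.00719), its median falling from 46.9 TPM at ZT00-04 to 29.2 TPM at ZT18-22. At 18°C its estimate was 0.23 (SE 0.111, adjusted p = 0.309), and the interaction did not separate the temperatures (adjusted p = 0.442). Ugt35B1 had the largest fitted amplitude at 25°C, 1.23, but did not pass (adjusted p = 0.108). With the marker scores as covariates its amplitude was 0.61 and it was called (adjusted p = 0.0465). The tubule marker sum also varied over the day there, with medians of 313 TPM at ZT00-04, 156 at ZT06-10, 117 at ZT12-16 and 132 at ZT18-22. Without the 7 libraries above 300 TPM of tubule markers at 25°C, only Ugt36D1 kept its call, while Ugt36A1 and Ugt49C1 had amplitudes of 0.40 and adjusted p-values of 0.0681.

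**Figure D4:**
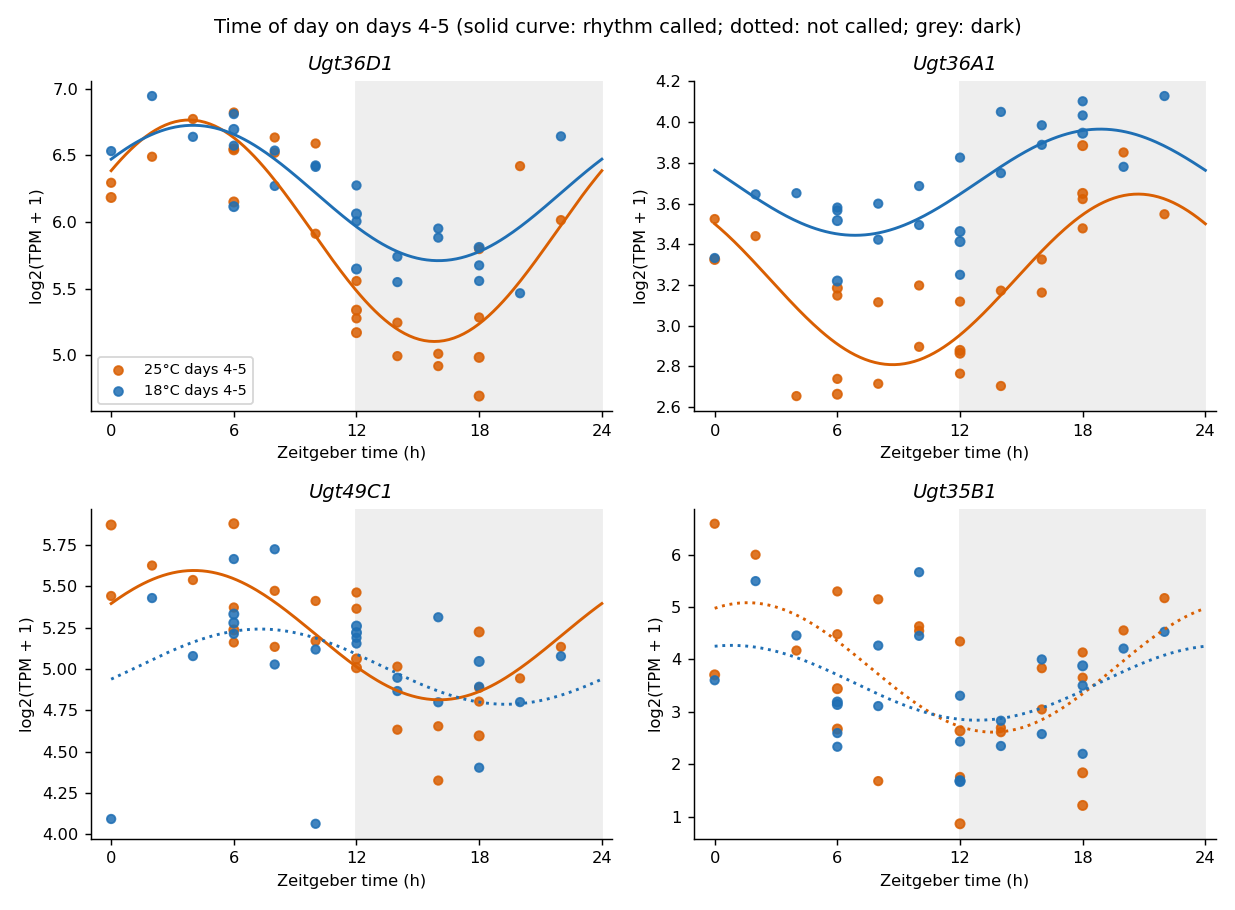
Level in log2(TPM + 1) against zeitgeber time on days 4-5 for Ugt36D1, Ugt36A1, Ugt49C1 and Ugt35B1, with 1 point per library at 25°C (orange) and 18°C (blue) and the fitted 24 h curve, solid where called and dotted where not, the dark phase in grey. Ugt36D1 is high in the light phase and Ugt36A1 in the dark phase at both temperatures.

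No temperature by harmonic interaction was called among the 14 genes (limma F-test, 0.435% of all tested genes). Unadjusted p-values under 0.05 were found for 3 of them, Ugt35C1, Ugt37D1 and Ugt36D1, and the smallest adjusted p was 0.297 for Ugt35C1. On days 1-2 at 18°C, no Ugt gene cycled by the F-test, against 0.0136% of all tested genes, and 3 had an unadjusted p under 0.05, against 7.07% of all genes. Ugt36D1 had the smallest (p = 0.00609, adjusted p = 0.485), and its fitted peak at ZT3.71 (SE 0.947 h) lay close to those of days 4-5.

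The period was compared within each temperature next. At 18°C, 3 of the 14 genes differed between days 1-2 and days 4-5, all lower on days 1-2 (limma), against 30.1% of all tested genes, 23.9% lower. All 14 estimates were below 0, with a median of −0.17 against −0.13 for all tested genes. In the rescaled TPM these medians were −0.07 and −0.03, the same 3 genes were called, and the split over all genes moved from 459 higher and 1755 lower on days 1-2 to 890 and 864. Both period comparisons share their days 4-5 libraries with the temperature comparison above, and period is also the age of the flies. All 5 muscle markers were higher on days 1-2 at 18°C (3081 to 5251 TPM, median 4114), and their part was not tested.

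Ugt37A1 was again the widest. At 18°C it had a median of 1.41 TPM on day 1 (0.61 to 4.67, without the time of the shift), 1.85 TPM on day 2 (0.21 to 10.6), 8.74 TPM on day 4 (1.04 to 23.4) and 7.59 TPM on day 5 (2.17 to 25.5). At 25°C on days 1-2 its values were 0.13 to 2.53 TPM, so the 18°C libraries of days 1-2 lay mostly in the range of the 25°C ones and the high values came on days 4-5. The period difference at 18°C was −1.53 log2 units (SE 0.271, limma adjusted p = 7.02e-05), and each fit that left out 1 library of days 1-2 kept it between −1.65 and −1.46. The 18°C libraries of days 4-5, through which Ugt37A1 passed the filter, are 1 arm of this comparison too, so the filter favoured this direction. With no filter on low values the adjusted p was 0.000216.

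Ugt36A1 had a median of 9.45 TPM on day 1 and 7.75 TPM on day 2, against 12.3 and 11.2 TPM on days 4 and 5, a difference of −0.41 (SE 0.078, limma adjusted p = 0.000153). Ugt36E1, which did not pass the temperature test on days 4-5, had 31.5 and 26 TPM against 39.1 and 37.2 TPM, or −0.40 (SE 0.096, adjusted p = 0.00193).

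At 25°C, where the temperature stayed the same, 3 of the 14 genes were called, all higher on days 1-2, against 20.7% of all tested genes and 4.69% in that direction. In the rescaled TPM the split over all genes moved from 345 higher and 1180 lower on days 1-2 to 739 and 667, and the same 3 genes and Ugt36E1 (0.43, limma adjusted p = 0.0413) were called higher. Ugt36E1 was also called with scores of ovary, gut and tubule markers as covariates (0.48, adjusted p = 0.0370). Ugt49B1 had values of 103.7 to 172 TPM on days 1-2 and 48.9 to 111 TPM on days 4-5, with little overlap, and differed by 0.64 log2 units (SE 0.156, limma adjusted p = 0.00534). Its neighbour Ugt49C1 (46.2 to 77.8 TPM against 19.1 to 57.8 TPM) differed by 0.63 (SE 0.126, adjusted p = 0.00131), and Ugt317A1 (12.1 to 17.9 TPM against 6.92 to 14 TPM) by 0.53 (SE 0.116, adjusted p = 0.00268). With the marker scores, Ugt317A1 was at 0.40 (adjusted p = 0.0792). The days 1-2 libraries at 25°C had an eggshell marker sum of 82.1 to 2912 TPM with a median of 985, against a median of 18.2 TPM on days 4-5.

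Whether the temperature difference itself changed between the periods was tested on 27 libraries at shared times. None of the 14 genes passed (limma, 1.63% of all tested genes), and 4 had an unadjusted p under 0.05, against 16.9% of all genes. Ugt37A1 came nearest, with a temperature difference smaller by 2.15 log2 units on days 1-2 (SE 0.59, adjusted p = 0.0581), followed by Ugt36E1 at −0.96 (adjusted p = 0.105) and Ugt49B1 at −1.22 (adjusted p = 0.145). Ugt37A1 passed the filter only through the later 18°C libraries, some of which are in this test. The filter thus favoured the sign of the Ugt37A1 estimate here too. With the marker scores as covariates, Ugt36E1 (−1.39, limma adjusted p = 0.0486) and Ugt49B1 (−2.09, adjusted p = 0.0303) were called. The 18°C library of day 2 at ZT00, with the lowest fat body sum, is in this test. It held 21.2 TPM of Ugt36E1 and 19.2 TPM of Ugt49B1. Both genes were already lower in the 18°C flies at the time of the shift, at 45.8 against 57.2 TPM and 111 against 158 TPM.

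On days 1-2, only 3 time points after the shift were sampled at both temperatures, with 1 library each. No gene of the 7358 was called (limma, 0.00%), and 6 Ugt genes had an unadjusted p under 0.05, against 13.4% of all genes. Their estimates were 1.1 for Ugt37D1, 0.81 for Ugt35A1 and 0.65 for Ugt302C1, and −0.77 for Ugt36E1, −1.21 for Ugt35C1 and −1.38 for Ugt49B1. Among the 18°C libraries of days 1-2, that of day 2 at ZT00, named above for its markers, held the lowest Ugt49B1 and Ugt35C1 and the highest Ugt37D1, Ugt35A1 and Ugt302C1. When the 25°C library of that time was left out, no Ugt gene was called either. Without the 25°C library of day 1 ZT06 or ZT12, only Ugt49B1 was called (−1.80, limma adjusted p = 0.0171, and −1.82, adjusted p = 0.00138).

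Ugt37D1 was at 16.2 TPM at 25°C and 15.6 TPM at 18°C at the time of the shift. It then measured 17.4, 17.7 and 22.1 TPM at 25°C at day 1 ZT06, day 1 ZT12 and day 2 ZT00, and 36.2, 35.4 and 56.3 TPM at 18°C. At these 3 times the library at 18°C was above the matched one at 25°C, already 6 h after the shift, and on days 4-5 this held for 20 of 24 pairs. The 25°C library of day 1 at ZT18, without a match at 18°C, had 31.1 TPM of Ugt37D1. This lay within the range of the 18°C libraries of day 1 after the shift, 15.96 to 36.28 TPM. Ugt35C1, already lower in the 18°C flies at the time of the shift (20.6 against 26.9 TPM), ran the other way at these times, with 50.9, 23.0 and 44.4 TPM at 25°C and 17.7, 18.3 and 11.7 TPM at 18°C, as it did on days 4-5.

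Ugt49B1 measured 115, 104 and 172 TPM at 25°C and 78.6, 73.1 and 19.2 TPM at 18°C, but it was already lower in the 18°C flies at the time of the shift (111 against 158 TPM). Its median on days 4-5 was 80.6 TPM at 25°C against 82.4 TPM at 18°C, so the gap of the first days was not seen there.

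**Figure D5:**
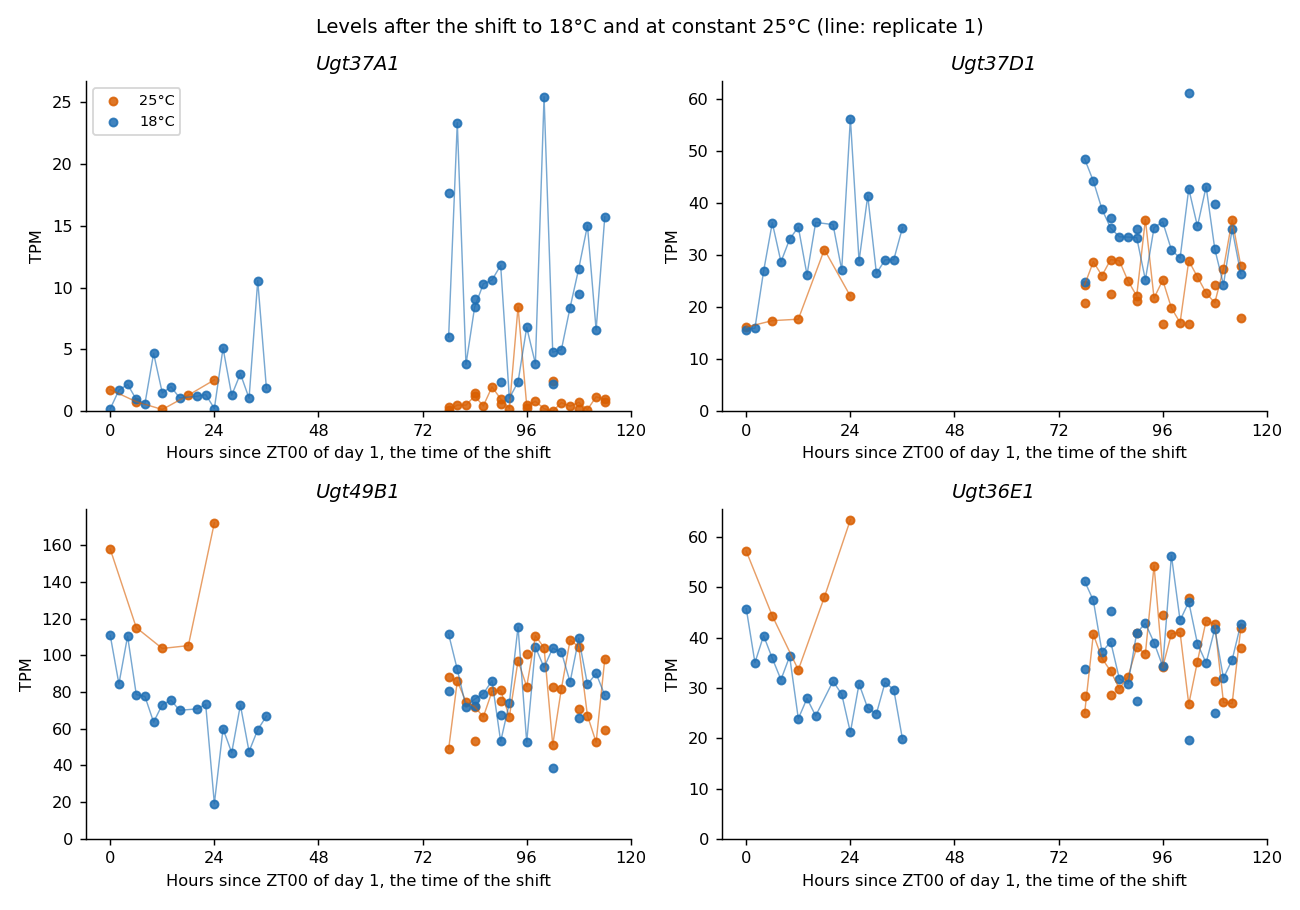
Level in TPM of Ugt37A1, Ugt37D1, Ugt49B1 and Ugt36E1 against hours since ZT00 of day 1, with 1 point per library at 25°C (orange) and 18°C (blue) and lines through replicate 1. Ugt37D1 is higher at 18°C at the 3 matched times after the shift on days 1-2, and Ugt37A1 stands above its 25°C level mainly on days 4-5. Ugt49B1 and Ugt36E1 are higher at 25°C at the matched times of days 1-2, already at the time of the shift, and overlap on days 4-5.

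Other genes of the same chemistry were counted from lists, to be read against the 35.3% higher and 15.4% lower among all tested genes. Of 8 genes that supply UDP-sugars, 6 were higher at 18°C on days 4-5 and none lower (limma adjusted p under 0.05), with a list median of 0.26 log2 units. In the rescaled TPM 4 of them were higher, with a median of 0.19. Among them, Galk, galactokinase, rose from a mean of 254 to 399 TPM (0.60, SE 0.11). Pgm2a (0.37), Galt (0.29), Pgm1 (0.23) and frc, a nucleotide-sugar transporter (0.23), also rose. UGP, which makes UDP-glucose itself, was at 0.22 (adjusted p = 0.109), and sgl, the UDP-glucose dehydrogenase, at 0.17 (adjusted p = 0.266).

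Of 25 tested glutathione S-transferase genes, 16 were higher and 1 lower at 18°C (median 0.30), and 15 higher and 1 lower in the rescaled TPM. Of 54 cytochrome P450 genes, 19 were higher and 14 lower (median 0.00), a split that turned to 14 higher and 19 lower in the rescaled TPM (median −0.06). None of the 2 tested sulfotransferases and 2 tested efflux transporters passed the limma test at an adjusted or an unadjusted p under 0.05. Of 5 tested regulators of detoxification genes, 1 was higher and 1 lower, or 1 and 2 in the rescaled TPM. The regulator maf-S, the partner of the Nrf2-type factor cnc, fell from a mean of 179 to 118 TPM (−0.59, SE 0.039, adjusted p = 4.94e-17). Keap1, the inhibitor of cnc, rose from 14.3 to 16.8 TPM (0.19, SE 0.059, adjusted p = 0.00568), and cnc itself was at −0.01 (SE 0.056, adjusted p = 0.930).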

How the data were processed

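The files hold a single table of TPM for 73 libraries. Per the labels and the methods, the authors made non-stranded polyA libraries, used Atropos for trimming, STAR 2.7.10a for alignment and RSEM for TPM against Ensembl BDGP6, and deposited the result. Duplicate reads were removed according to the methods, and whether this table is that version is not given in the sources used here. Every column sums to 1000000 within rounding, so the depth of single libraries is unknown beyond the nominal read number per sample in the methods. No counting error is given, and a transcript that takes a larger share lowers all others. How RSEM divided reads between similar family members was not tested. All columns were matched to samples by title.

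Values were analysed as log2(TPM + 1), which understates changes of low genes, for genes with a median above 5 TPM at either temperature on days 4-5. Tests ran over all of these genes with limma 3.58.1 in R 4.3.3 (mean differences and interactions, with 24 h cosine and sine terms or ZT as a factor) and with harmonic regression (cycling), Benjamini-Hochberg adjusted at 0.05. They were also run on simulated libraries with independent normal noise and known changes. That simulation held no shared tissue differences and no fixed total of TPM, so it does not cover these features of the data. Phase errors came from the delta method. The libraries are separate pools of flies, and no sequencing batch is labelled. The period comparison at 18°C and the temperature by period test left out ZT00 of day 1.

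The family and the lists were chosen with earlier results of these data known. Named with values were the 8 most abundant members, those called in any test, those nearest to 1 TPM on either side, and list genes that passed the temperature test (for the pattern-based lists, counts only). Other names were chosen after their values were seen. The values of 1 list gene are not reported here. Positions are from Ensembl BDGP6.54, a later annotation of the same assembly, in which all 35 identifiers were found. Alternatives were another pseudocount, other filters, rescaled TPM, marker scores as covariates, library weights, replicate blocks, single replicates and, added after seeing the data, leaving out single libraries or those with more than 300 TPM of tubule markers.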

Additional observations from a re-analysis of the deposited data

How the results depend on the processing

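The number of Ugt genes called by temperature on days 4-5 (8) was 13 with no filter on low values, which tests all 35 genes, and 6 to 2 without replicate 2 or 1. For cycling at 25°C (3), 6 were called at an unadjusted p under 0.1, 1 without libraries above 300 TPM of tubule markers, and 0 to 3 without replicate 1 or 2. For cycling at 18°C (2), 1 was called with no filter, 1 in the rescaled TPM and 5 at an unadjusted p under 0.1, with 0 to 2 when a replicate or a single library was left out. For days 1-2 at 18°C (0 cycling), 4 had an unadjusted p under 0.1. The temperature by period test (0) gave 2 with marker scores. The temperature test of days 1-2 (0) gave 6 when all 18°C libraries of days 1-2 were set against 25°C days 4-5, and 0 to 1 when a single 25°C library was left out, the call being Ugt49B1. With marker covariates that test was not run, since it has no residual degrees of freedom.

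Estimates of the temperature difference that changed sign were all of genes that did not pass. Without replicate 2 or 1, Ugt35B1 was at −0.55 and 0.59, Ugt36E1 at 0.17 and −0.27, Ugt49B1 at 0.12 and −0.19, and Ugt316A1 at −0.074 and 0.033. In the rescaled TPM Ugt49B1 was at −0.011. Without tubule-rich libraries Ugt35B1 was at 0.012 and Ugt301D1 at 0.00028, and Ugt301D1 was also at 0.13 with marker scores and at 0.049 with library weights. The cause was not tested.

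The replicate number did not pair the samples: deviations of replicate 2 from 1 had a correlation of −0.09 between temperatures, and 6 of 24 matched pairs had a residual correlation above 0.1. With the replicate block, cycling at 25°C was called for 6 genes, adding Ugt35B1, Ugt35A1 and Ugt302C1, and the temperature difference for 8, or 7 by matched pair.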
